A study of Mus musculus with 21 samples.

Results

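The genes described here are those of the mitochondrial respiratory chain: the nuclear genes whose symbols begin with Nduf, Uqcr, Cox4 to Cox8 or Atp5, the 4 succinate dehydrogenase genes Sdha to Sdhd, and the protein-coding genes of the mitochondrial genome. Cox6a2 was left out by the rule that chose them. The symbols were required in all 4 deposited tables, which left 84 nuclear genes of the 12339 genes that the tables share: 36 subunits of complex I, 7 assembly factors of complex I, 4 subunits of complex II, 8 of complex III, 15 of complex IV and 14 of complex V. All 84 passed the filter on low values in every comparison. A further 26 symbols matched but were listed in only some tables. Of these, 13 were the mitochondrially encoded genes, which are reported for tumours, and were not analysed in the stem cells. The other 13 were nuclear and included Cox8b and Ndufa4l2, which are given below only as partners of their isoforms.

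All mice carried MMTV-PyMT, a transgene in which the mammary tumour virus promoter drives the polyoma middle T oncogene in mammary epithelium. RNA sequencing was done on mammary tumours of sedentary and of physically active mice (active below) at week 12 and at week 18, and on sorted hematopoietic stem cells (HSCs) of sedentary and of physically active mice at week 12. A further HSC group at week 14 came from sedentary mice that had been transplanted with cells from a physically active mouse, and it is called the transplant group below. Each of the 7 groups had 3 libraries, which the labels call biological replicates without saying which animals they came from, so the tests measure the spread between these libraries. Age in weeks and transplantation differ together between the transplant group and the other HSC groups and cannot be told apart.

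The respiratory chain passes electrons from NADH through complex I, and from succinate through complex II, to coenzyme Q, then through complex III and cytochrome c to complex IV, which reduces oxygen. Complexes I, III and IV pump protons across the inner membrane, and complex V uses the gradient to make ATP. Complex II is encoded in the nucleus only, whereas the other complexes combine nuclear subunits with core subunits made inside the mitochondrion. Resting HSCs are known for relying on glycolysis more than on respiration, and tumours for using both.

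Values are normalised read counts, that is, reads per gene divided by 1 factor for each library. Tumour libraries held 20838963 to 28973775 reads, HSC replicates 1 and 2 held 16406889 to 24574563, and HSC replicate 3 of each group held 58500940 to 72417315. Luminal epithelial markers summed to 60073 to 152018 in the tumours, and all 12 HSC markers were listed in the HSC tables, where their sum was 18600 to 32909. In tumours 11 HSC markers were listed and summed to 9386 to 24538, so the ranges overlapped, each scaled among its own libraries. Between HSCs and tumours of sedentary mice, limma called 7 of 11 HSC markers higher in HSCs and 3 lower, beside 34.9 and 38.1% of all genes. In bulk RNA, fewer cells of a type and less RNA per cell cannot be told apart. Markers of other cell types differed between tumour libraries. The skeletal muscle list (15 genes) summed to 79637 to 174745 in the sedentary tumours of week 12 and to 468 to 22772 in the other 9 tumours. Replicate 3 of the active tumours of week 12 stood apart, with a T cell sum of 14892 against 234 to 501 in the other 11 tumours, a B cell sum of 21301 against 58 to 165, a white adipocyte sum of 333035 against 3882 to 77446, and the lowest luminal sum, 60073. Results that touch these libraries are given with and without them where they change.

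Levels per transcript length are given as RPKM, which scales reads to the length of the transcript and the size of the library. The median level of complex V subunits was highest among the nuclear complexes in each group, from 123.5 RPKM in active HSCs to 186.2 RPKM in active tumours of week 18. Complex IV medians lay between 98.4 and 127.1 RPKM, complex III between 70.9 and 122.1, complex II between 64.7 and 114.0, and complex I between 40.0 and 57.8. The complex I assembly factors, which help to build the complex and are not part of it, had medians of 7.87 to 14.1 RPKM. Mitochondrially encoded genes stood far above, with group medians of 749.8 to 1411 RPKM over the 4 tumour groups. The complex II median was above that of complex III in all 3 HSC groups and below it in all 4 tumour groups.

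In tumours of week 12, no respiratory chain gene differed between active and sedentary mice past the threshold. By limma with Benjamini-Hochberg adjustment over 19162 genes, 0 of the 84 nuclear genes and 0 of the 13 mitochondrially encoded genes had an adjusted p under 0.05, against 0.517% of all genes tested. At an unadjusted p under 0.05 the count was 1 of 84, beside 4.09% of all genes, and edgeR and DESeq2 each called 0. The median log2 difference of the 84 genes was -0.003, beside 0.01 for all genes, with 40 genes above zero and 44 below. Groups that did not overlap were seen for 3 members on the higher side (Atp5a1, Atp5c1 and Sdhc), where 4.36% of all genes were, and for 4 on the lower side (Cox7a1, Ndufa11, Ndufa12 and Ndufs6), where 4.78% were.

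Cox7a1, the complex IV isoform typical of heart and skeletal muscle, had the smallest p among the nuclear genes of week 12. Its levels were 133.2, 109.6 and 104.8 in the sedentary tumours and 26.4, 30.9 and 72.5 in the active tumours. Every active tumour lay below every sedentary tumour. The log2 difference was -1.54 (SE 0.41, n = 3 and 3), with a limma adjusted p of 0.698. Skeletal muscle markers moved with it: 12 of the 15 fell past the threshold and their median log2 difference was -7.31. Their part in the Cox7a1 values was not tested.

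Ndufa11, an accessory subunit of complex I, was next on the lower side. Its levels were 835.1, 786.2 and 859.9 in sedentary tumours and 607.7, 672.8 and 678.0 in active tumours, again without overlap. The log2 difference was -0.34 (SE 0.14), with a limma adjusted p of 0.970. On the higher side Atp5c1, the gamma subunit of the ATP synthase F1 head, read 3962, 4455 and 4270 in sedentary and 4626, 4584 and 5018 in active tumours. That is a log2 difference of 0.17 (SE 0.14).

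The mitochondrially encoded genes of week 12 were above zero for 12 of 13, with a median log2 difference of 0.26. The value rested on replicate 3 of the active group, and without it the median was 0.03. For mt-Nd5, a proton-pumping core subunit of complex I, the sedentary tumours read 36125, 31574 and 30499 and the active tumours 43470, 37594 and 65241. Its log2 difference was 0.54 (SE 0.25) with a limma adjusted p of 0.970. The same library was high for complex II: Sdha, the flavoprotein subunit, read 8743, 8659 and 14181 in active tumours and 9290, 7860 and 9165 in sedentary ones. Leaving that library out moved the median of the 84 nuclear genes to -0.11, with 20 genes above zero.

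**Figure D1:**
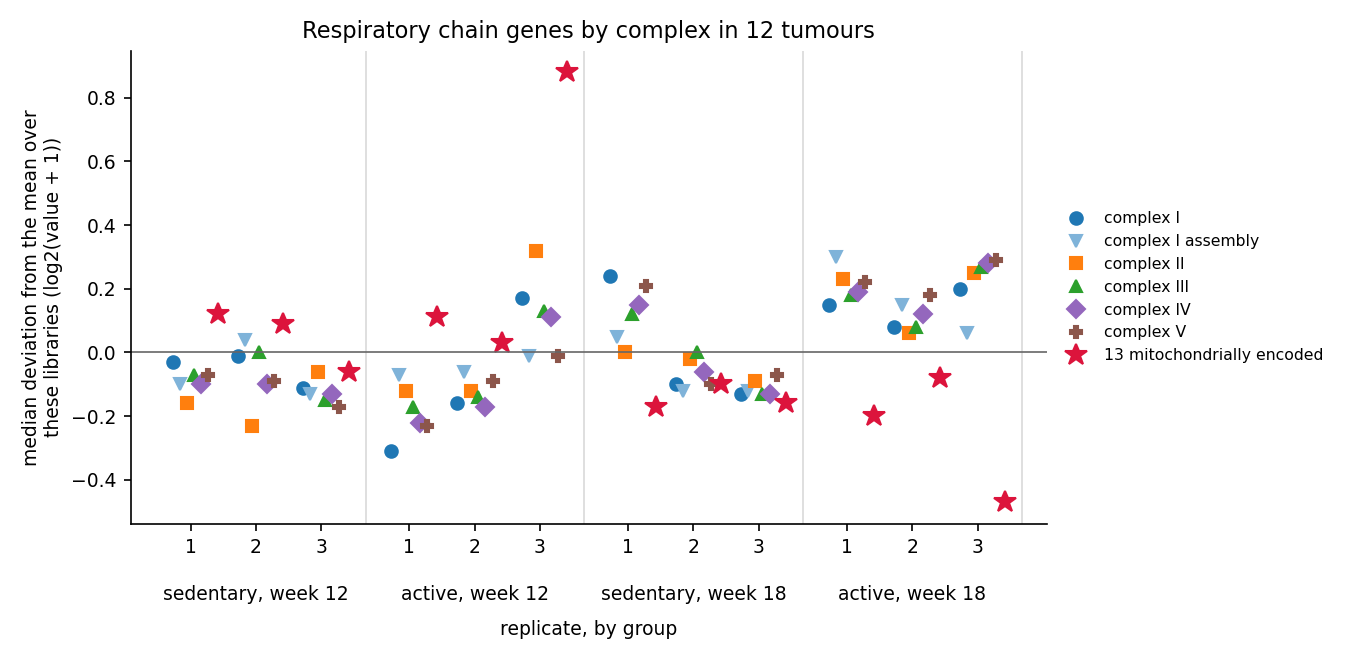
Each point is the median, over the genes of a complex, of the deviation of 1 tumour library from the mean over the 12 tumours on the log2(value + 1) scale; the x axis gives replicates by group. Stars are the 13 mitochondrially encoded genes, which reach 0.88 in replicate 3 of the active tumours of week 12 and -0.47 in replicate 3 of the active tumours of week 18, while the nuclear complexes stay between -0.31 and 0.32.

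At week 18 most nuclear genes of the chain were somewhat higher in active tumours, but none passed the test. The log2 difference was above zero for 77 of 84 genes, with a median of 0.19 beside 0.009 for all genes tested. By limma 0 of 84 had an adjusted p under 0.05, as had 0.0% of the 18939 genes tested. The unadjusted count was 1 of 84, beside 1131 genes of the whole table, and edgeR and DESeq2 called 0 members. Scaling to total reads lowered the median of all genes to -0.07 and that of the members to 0.11, with 68 genes above zero. Markers of other cell types moved without passing: white adipocyte markers had a median log2 difference of -1.69, with 9 of 9 below zero, skeletal muscle markers 1.18, with 15 of 15 above, and luminal markers 0.23, with 8 of 8 above. Their part in the members' values was not tested.

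Groups of week 18 did not overlap on the higher side for 14 of the 84 nuclear genes (16.7%), where 6.03% of all genes did so, and for 0 on the lower side, where 7.57% did. The 14 came from every class: Ndufa10, Ndufab1 and Ndufc1 of complex I, the assembly factors Ndufaf3 and Ndufaf5, Sdhc of complex II, Uqcrc1 and Uqcrh of complex III, Cox5a, Cox6b1 and Cox7a2 of complex IV, and Atp5b, Atp5g3 and Atp5k of complex V. By class, the median log2 difference was 0.19 for complex I, 0.18 for its assembly factors, 0.25 for complex II, 0.19 for complex III, 0.19 for complex IV and 0.21 for complex V. All 14 subunits of complex V were above zero. By length, members under 700 bases had a median of 0.17, as had the 267 other genes of that length. From 700 to under 1000 bases the medians were 0.18 and 0.15, and from 1000 to under 1500 bases 0.22 and 0.15. From 1500 to under 2500 bases they were 0.21 and 0.09. The 7 members of 2500 bases or more had 0.25 and the 8163 other genes of that length 0.01. The part of length was not tested.

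Atp5k, the e subunit of the ATP synthase membrane part, had the smallest p of week 18. Its levels were 641.5, 521.1 and 528.4 in sedentary and 775.1, 713.4 and 729.1 in active tumours, so that all active tumours were above all sedentary ones. The log2 difference was 0.40 (SE 0.16), with a limma adjusted p of 0.824. Cox7a2, the widely expressed counterpart of Cox7a1, read 1373, 1085 and 1067 in sedentary and 1485, 1512 and 1650 in active tumours. Its log2 difference was 0.41 (SE 0.17). Cox7a1 itself read 134.0, 157.9 and 29.7 against 39.5, 67.3 and 50.8, and its groups overlapped. Leaving out single libraries moved the members' median between 0.13 and 0.29, the latter without replicate 1 of the sedentary tumours, which had the highest nuclear values of its group.

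Mitochondrially encoded genes did not follow the nuclear ones at week 18. Their median log2 difference was -0.11, with 10 of 13 below zero and 0 past the threshold by limma (0 at an unadjusted p under 0.05). Without replicate 3 of the active tumours the median was -0.003, without replicate 2 it was -0.18, and with scaling to total reads -0.19. For mt-Atp6, the a subunit in the proton channel of complex V, sedentary tumours read 12359, 11775 and 10097 and active tumours 9614, 9295 and 7191, without overlap. For mt-Nd4, a core subunit of complex I, sedentary tumours read 42667, 41079 and 41997 and active tumours 37531, 38147 and 27777. These are log2 differences of -0.40 (SE 0.19) and -0.30 (SE 0.18), each with a limma adjusted p of 0.824. Cycs, the cytochrome c that carries electrons from complex III to complex IV, read 1793, 1845 and 1923 in sedentary and 2619, 2318 and 2702 in active tumours, a log2 difference of 0.46 (SE 0.15) with the same adjusted p.

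The change of the activity effect between the weeks was tested as an interaction. By limma 0 of 84 nuclear genes and 0 of 13 mitochondrially encoded genes passed, beside 0.0104% of the 19241 genes tested. The unadjusted count was 2 of 84, beside 6.33% of all genes, and edgeR and DESeq2 called 0 members. The median of the interaction was 0.19 for the nuclear genes, with 74 of 84 above zero, -0.02 for all genes and -0.42 for the mitochondrially encoded genes, with 13 of 13 below zero. Without replicate 3 of the active tumours of week 12 the nuclear median was 0.30 and the mitochondrial one -0.12. Scaling to total reads gave a nuclear median of 0.12, with 65 above zero, and scaling to the reads outside mitochondrial genes 0.11, with 61 above. By length, members under 700 bases had a median of 0.21 and other genes of that length 0.15. From 700 to under 1000 bases the medians were 0.25 and 0.19, and from 1000 to under 1500 bases 0.22 and 0.19. From 1500 to under 2500 bases they were 0.12 and 0.10, and from 2500 bases on 0.15 and -0.01. The part of length was not tested. Skeletal muscle markers had a median interaction of 8.22 and white adipocyte markers -3.05, and their part in these values was not tested. Ndufa11 had the smallest nuclear p, with an interaction of 0.76 (SE 0.27) and a limma adjusted p of 0.689, and Atp5g1, which encodes the c ring of complex V, had 0.67 (SE 0.28) and 0.770. On the lower side mt-Nd6, the complex I subunit on the light strand, had -0.76 (SE 0.42) and mt-Nd5 -0.56 (SE 0.31).

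Tumours of both treatments were also compared by age, a comparison chosen after the values were seen. Each week was deposited in a table of its own, so a difference between the tables cannot be told apart from age. Mitochondrially encoded genes were lower and nuclear ones higher at week 18 than at week 12, in small amounts that limma did not call. By limma 0 of 84 and 0 of 13 passed, beside 0.0052% of 19241 genes. At an unadjusted p under 0.05 there were 17 of 84 nuclear genes (20.2%, beside 13.2% of all genes) and 5 of 13 mitochondrial genes. The median log2 difference was 0.16 for the nuclear genes, with 73 of 84 above zero, -0.38 for the 13 mitochondrial genes, all below zero, and -0.04 for all genes. In the sedentary tumours alone these medians were 0.06 and -0.19, and in the active tumours alone 0.26 and -0.56. Without replicate 3 of the active tumours of week 12 the medians were 0.21 and -0.25, and 30 nuclear genes had an unadjusted p under 0.05. Without replicate 1 of the sedentary tumours of week 18 the nuclear median was 0.10, and over single left-out libraries the unadjusted count was 8 to 30. Nuclear members under 700 bases had a median of 0.19 and other genes of that length 0.18. Medians were 0.18 and 0.14 from 700 to under 1000 bases, and 0.18 and 0.13 from 1000 to under 1500 bases. They were 0.12 and 0.04 from 1500 to under 2500 bases, and 0.16 and -0.02 from 2500 bases on. A part of length in the nuclear values was not tested. DESeq2, beside 3.75% of all genes, called 8 nuclear members higher (Atp5a1, Atp5d, Atp5j2, Atp5l, Cox7c, Ndufa11, Ndufa4 and Sdhc) and mt-Nd2, mt-Nd4l and mt-Nd5 lower. edgeR called 0.

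Single genes show the spread behind the age difference. The 6 tumours of week 12 ranged from 27089 to 49615 for mt-Nd2, a core subunit of complex I, with a median of 29302, and the 6 of week 18 from 15318 to 23482, with a median of 22234. All tumours of week 18 lay below all of week 12, as for mt-Cytb, the catalytic core of complex III, and mt-Nd4, so 3 of the 13 mitochondrial genes did so where 0.577% of all genes did. The 13 genes moved together in single libraries, with a median deviation of 0.88 in replicate 3 of the active tumours of week 12. The 3 are therefore not independent observations. The log2 difference of mt-Nd2 was -0.63 (SE 0.17), with a limma adjusted p of 0.303. Among nuclear genes only Ndufc2 was without overlap on the higher side, where 0.343% of all genes were. Ndufa11 ranged from 609.5 to 862.5 with a median of 734.3 at week 12 and from 705.4 to 1459 with a median of 1004 at week 18, a log2 difference of 0.44 (SE 0.13) with a limma adjusted p of 0.306. Atp5d, the delta subunit of the ATP synthase F1 part, had 0.33 (SE 0.11) and 0.307. White adipocyte markers were lower at week 18, with a median log2 difference of -3.36 and 8 of 9 at an unadjusted p under 0.05, and muscle, T cell and B cell lists had medians of -0.61, -1.56 and -2.10. Their part in these differences was not tested.

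Counted as reads, the balance of the 2 genomes separated the weeks. The 13 mitochondrial genes took 2.4, 2.45 and 2.1% of the reads in sedentary tumours of week 12, 2.43, 2.16 and 3.8% in active tumours of week 12, 2.04, 2.07 and 1.95% in sedentary tumours of week 18, and 1.89, 2.09 and 1.54% in active tumours of week 18. The 84 nuclear genes took 0.770 to 0.918% at week 12 and 0.786 to 1.01% at week 18. Mitochondrial reads were 3.04, 2.95 and 2.66 times the nuclear reads in sedentary tumours of week 12 and 3.15, 2.81 and 4.14 times in active ones. At week 18 the ratios were 2.02, 2.53 and 2.48 in sedentary and 2.09, 2.24 and 1.65 in active tumours. Every ratio of week 18 lay below every ratio of week 12, while within each week the treatments overlapped.

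**Figure D2:**
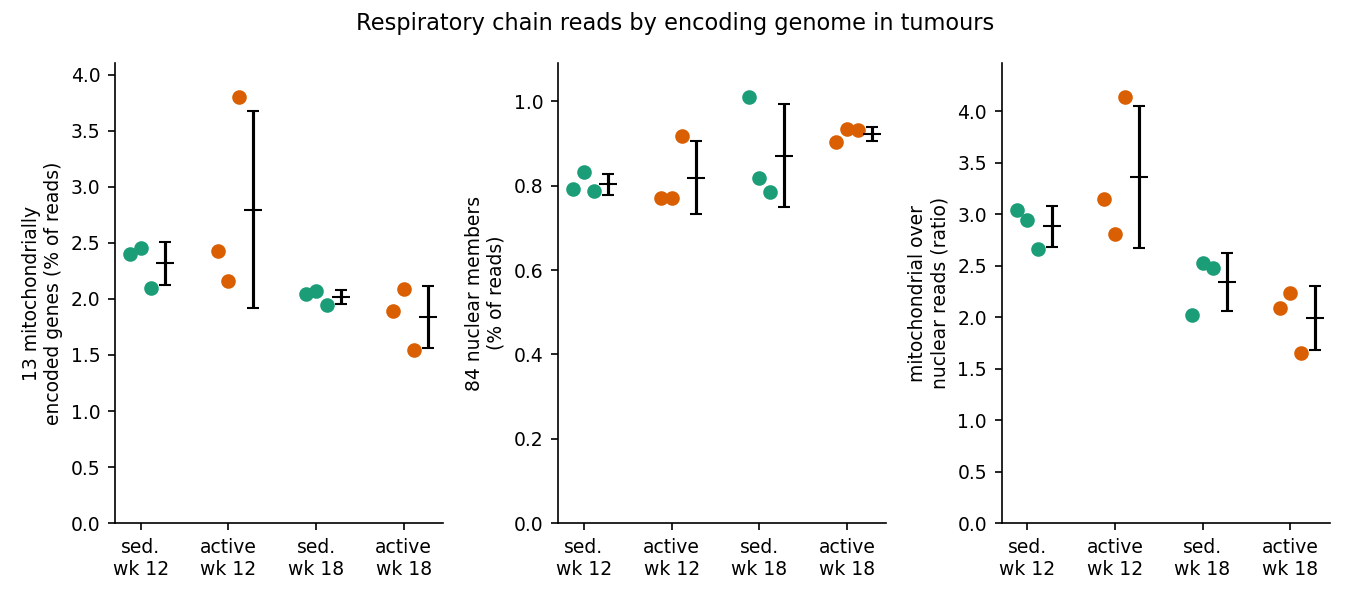
The panels give, for each of the 12 tumours (points) by group (sed., sedentary; wk, week), the percent of reads in the 13 mitochondrially encoded genes, the percent in the 84 nuclear genes, and their ratio; bars are the mean ± SD (n = 3). The ratio runs from 2.66 to 4.14 at week 12 and from 1.65 to 2.53 at week 18.

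**Figure D3:**
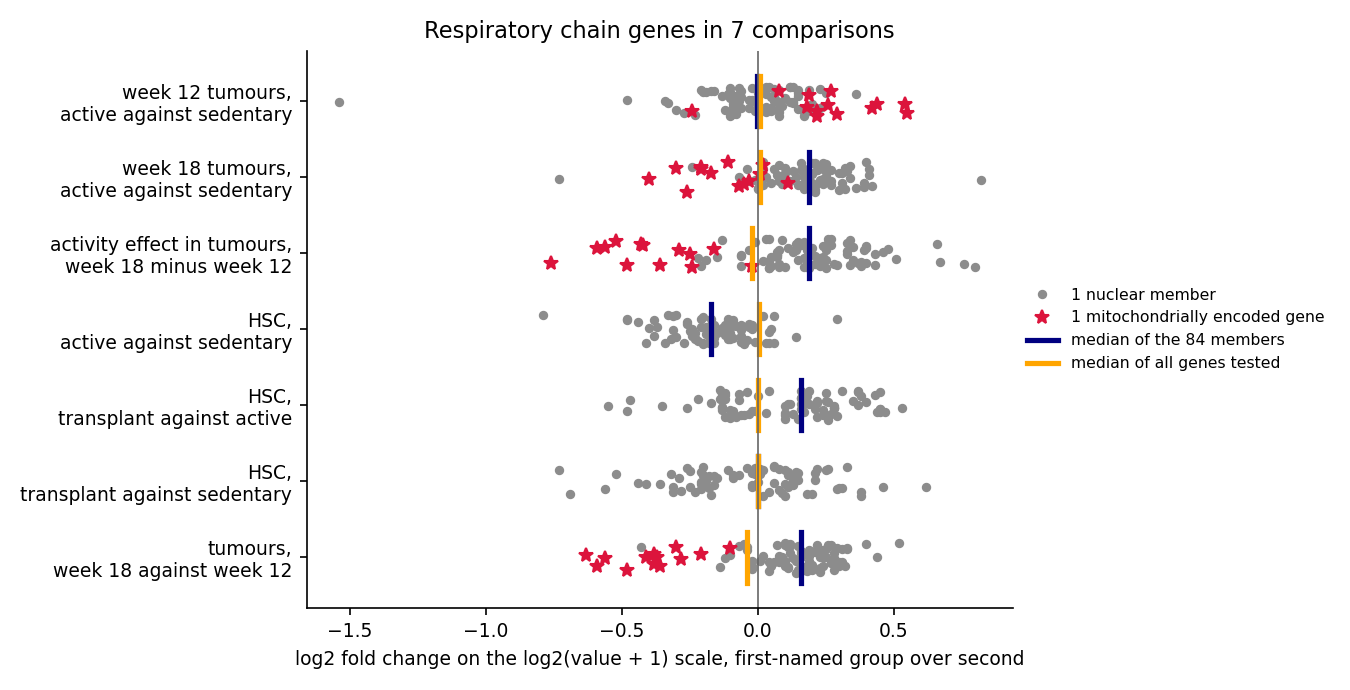
The x axis is the log2 fold change on the log2(value + 1) scale in 7 comparisons (rows); grey points are the 84 nuclear genes, stars the mitochondrially encoded genes (tumours only), and bars the medians of the 84 genes and of all genes tested. Stars and grey points part in the interaction row (medians -0.42 and 0.19) and in the row for age (-0.38 and 0.16).

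Among the HSC libraries, replicate 3 of each group stood apart for these genes. Its library names contain a letter where those of replicates 1 and 2 are plain numbers, and it was sequenced more deeply. With this difference as a term in the sedentary and transplant libraries, 74 of the 84 genes were lower in replicate 3, with a median log2 difference of -0.40 beside 0.026 for all genes. Over both directions 45 of the 84 had an unadjusted p under 0.05, beside 1243 of the 13329 genes tested. limma called 1 member, Atp5e, the epsilon subunit of the ATP synthase F1 part, and it fell by 1.37 on the log2 scale (SE 0.12, adjusted p = 0.0445). Of all genes tested, 0.345% passed in either direction and 0.015% passed as lower. Levels of Atp5e were 1544, 1405 and 536.5 in sedentary HSCs, 1619, 1748 and 462.5 in active HSCs and 1670, 1887 and 732.4 in the transplant group, the third value being replicate 3 each time.

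The difference was widest among members with short transcripts. The members' median transcript length was 870 bases, from 371 to 4715, beside 3053 for the 10274 other genes of the HSC tables with a mean value of at least 50, the minimum used for all values by length. Members under 700 bases had a median of -0.73 in replicate 3 and the other genes of that length -0.48. From 700 to under 1000 bases the medians were -0.50 and -0.32, and from 1000 to under 1500 bases -0.19 and -0.18. From 1500 to under 2500 bases they were -0.16 and -0.04, and from 2500 bases on -0.10 and 0.08. The part of length was not tested. Since each HSC group holds 1 such library, comparisons between HSC groups are given with and without it. Active replicate 2 carries the same library number in both HSC tables, but under different column names and with different reads for all 84 genes (13086 of the 13380 shared genes), so each comparison uses its own table's column and which one is the labelled sample is not known.

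**Figure D4:**
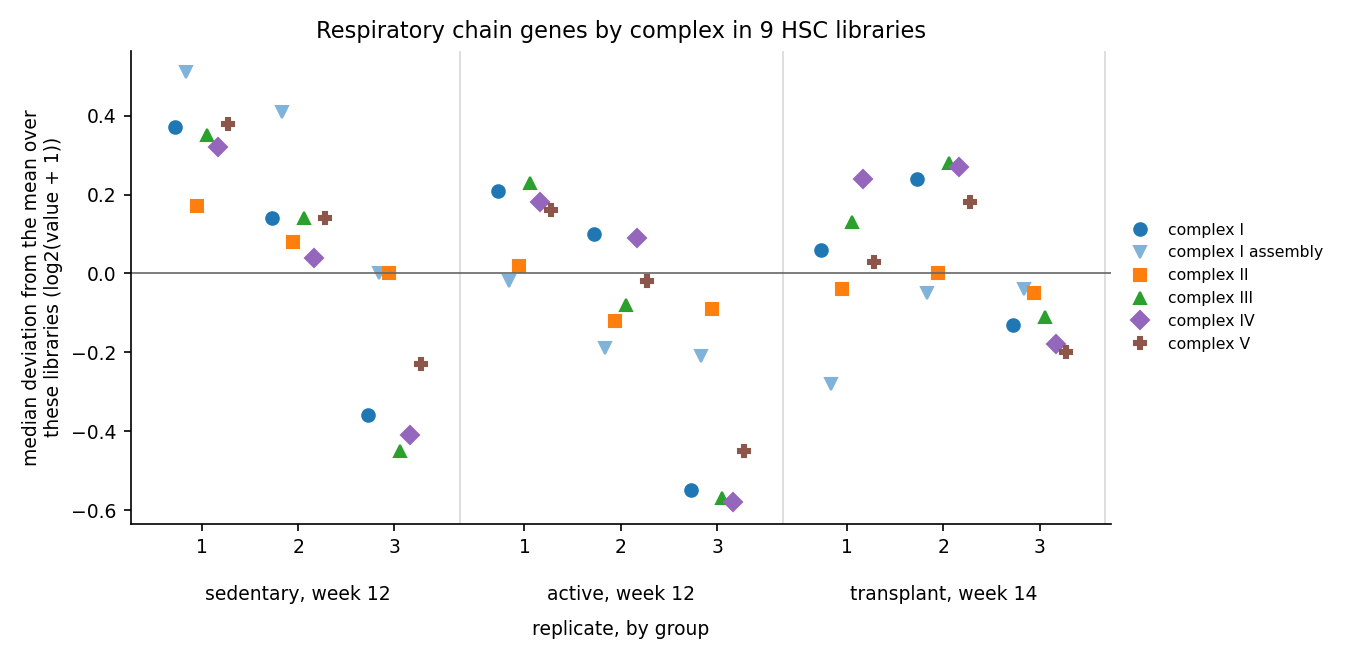
Each point is the median, over the genes of a complex, of the deviation of 1 HSC library from the mean over the 9 HSC libraries on the log2(value + 1) scale, by replicate and group. Replicate 3 is the lowest of its group for the 84 genes together in all 3 groups (-0.31, -0.52 and -0.15), while the complex I assembly factors are highest in sedentary replicates 1 and 2 (0.51 and 0.41).

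In HSCs of active mice, 75 of the 84 genes were below their level in sedentary mice, but no gene passed. By limma 0 of 84 had an adjusted p under 0.05, as had 0.0% of 13513 genes, with 2 of 84 at an unadjusted p under 0.05 beside 1252 of all genes. edgeR and DESeq2 called 0 members. The median log2 difference was -0.17 beside 0.004 for all genes. Without replicate 3 of the active HSCs it was 0.02, with 44 genes above zero, and without replicate 1 of the sedentary HSCs -0.005, with 40 above zero. Without replicate 3 of the sedentary HSCs it was -0.34, with 3 above zero, and without replicate 1 of the active HSCs -0.29, with 1 above zero. The other column of active replicate 2 gave a median of -0.14, with 3 above zero. With replicates 1 and 2 only in both groups it was -0.16, with 21 above zero and 63 below. The assembly factors of complex I had the lowest class median, -0.38, with 0 of 7 above zero, and complexes I to V had medians between -0.20 and -0.12. By length, members under 700 bases had a median of -0.11, as had other genes of that length. From 700 to under 1000 bases the medians were -0.17 and -0.15, and from 1000 to under 1500 bases -0.18 and -0.13. From 1500 to under 2500 bases they were -0.20 and -0.07, and from 2500 bases on -0.19 and 0.03. The part of length was not tested.

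Groups did not overlap on the lower side for 6 genes, Atp5a1, Atp5b, Cox4i2, Ndufaf1, Ndufaf7 and Uqcrc2, where 9.29% of all genes did so, and on the higher side for 0, where 10.4% did. Cox4i2, a complex IV isoform known from lung and for oxygen-dependent expression, read 189.1, 207.3 and 192.7 in sedentary and 136.1, 73.3 and 144.9 in active HSCs. The log2 difference was -0.79 (SE 0.28), with a limma adjusted p of 0.475. With the other column of active replicate 2 the Cox4i2 difference was -0.18. Ndufaf7, a methyltransferase that acts in complex I assembly, read 803.9, 748.8 and 544.7 in sedentary and 531.5, 479.6 and 470.0 in active HSCs, a log2 difference of -0.48 (SE 0.19) with an adjusted p of 0.475.

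No member differed past the threshold between HSCs of the transplant group and those of active mice. By limma 0 of 84 passed, beside 0.0513% of 13633 genes, with 1 of 84 at an unadjusted p under 0.05 beside 17.8% of all genes. edgeR called 0 members, as did DESeq2, which called 8.32% of all genes. The median log2 difference was 0.16 beside 0.000 for all genes, with 53 above zero. Without replicate 3 of the active HSCs it was -0.10, with 29 above zero, and without replicate 3 of the transplant group 0.23, with 60 above zero. With replicates 1 and 2 only in both groups it was 0.04, with 44 above and 40 below. The other column of active replicate 2 gave 0.15, with 67 above. In limma, a term for replicate 3 left 13 of 84 at an unadjusted p under 0.05, and the replicate number as a block left 8. Both fits called 0 members, and 0.0% of all genes. By length, members under 700 bases had a median of 0.26, as had other genes of that length. From 700 to under 1000 bases the medians were 0.17 and 0.15, and from 1000 to under 1500 bases 0.07 and 0.08. From 1500 to under 2500 bases they were -0.09 and 0.02, and from 2500 bases on -0.13 and -0.04. The part of length was not tested. Groups did not overlap for 3 members on the higher side, Ndufa4, Ndufaf1 and Sdhd (13.1% of all genes), and for 2 on the lower side, Atp5a1 and Ndufaf4 (12.1%). Ndufa4, a complex IV subunit first assigned to complex I, read 2599, 2182 and 2016 in active HSCs and 2887, 2964 and 2861 in the transplant group. Its log2 difference was 0.37 (SE 0.13), with a limma adjusted p of 0.253.

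Against sedentary HSCs, the transplant group showed no member past the threshold although many other genes passed. By limma 0 of 84 had an adjusted p under 0.05 where 11.6% of 13329 genes had, and 4 of 84 had an unadjusted p under 0.05 (4.76%, beside 31.7% of all genes). edgeR called 2 (19.3% of all genes), Ndufv3 higher and Ndufaf4 lower, and DESeq2 called those and Ndufaf7 lower (23.8%). The median log2 difference was -0.000, as for all genes, with 42 genes on each side. Without replicate 3 of the sedentary HSCs it was -0.21, with 10 above zero, and limma then called Ndufaf6 and Ndufaf7 lower, where it called 11.0% of all genes. Without replicate 3 of the transplant group the median was 0.09, with 46 above zero. Without replicate 1 of the sedentary HSCs it was 0.17, with 53 above zero. In both fits limma called 0 members, beside 12.5 and 2.21% of all genes. With replicates 1 and 2 only in both groups the median was -0.10, with 30 above zero and 54 below, and limma called Ndufaf6 lower, beside 14.7%. Groups did not overlap for Ndufv3 on the higher side, where 20.3% of all genes did so, and for 8 members on the lower side, where 18.4% did.

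The 4 genes with the smallest p between transplant and sedentary HSCs were Ndufv3, an accessory subunit of complex I, and 3 of the 7 assembly factors (42.9% at an unadjusted p under 0.05, beside 31.7% of all genes). Ndufaf4 read 1959, 1790 and 1523 in sedentary HSCs and 836.5, 1170 and 1310 in the transplant group, a log2 difference of -0.69 (SE 0.21) with a limma adjusted p of 0.0850. Ndufaf6 read 324.7, 341.1 and 233.5 against 184.5, 196.5 and 219.6, a log2 difference of -0.56 (SE 0.18) with an adjusted p of 0.0969. The groups did not overlap for either gene. Ndufaf7 differed by -0.52. Ndufv3 read 916.9, 829.9 and 615.4 in sedentary HSCs and 1418, 1181 and 1024 in the transplant group, a log2 difference of 0.62 (SE 0.20) with an adjusted p of 0.103. The median of the 7 assembly factors was -0.31, while complexes I to V had medians between -0.12 and 0.13.

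Neutrophil granule and megakaryocyte markers differed between the HSC groups. The granule list (10 genes) summed to 86370 to 125341 in sedentary, 153477 to 453169 in active and 321409 to 414208 in transplant HSCs, and the megakaryocyte list (7 genes) to 2263 to 4054, 5160 to 28703 and 9594 to 27649. All 10 and all 7 rose in the transplant group against the sedentary one by limma. Their part in the respiratory chain values was not tested.

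HSCs were compared with tumours in sedentary mice at week 12. By limma 32 of the 84 genes differed, 22 higher and 10 lower in HSCs, beside 73.0% of the 12426 genes tested (34.9% higher and 38.1% lower). The lower count was 2 without replicate 2 of the sedentary tumours and 4 without their replicate 3. In each of these fits 18 members were called in either direction, beside 68.1 and 67.2% of all genes. The median log2 difference was 0.05 beside -0.05 for all genes. Without replicate 3 of the sedentary HSCs the members' median was 0.24, with 33 called higher and 9 lower, beside 71.5% of all genes. Scaling to total reads moved the median of all genes to -0.35 and the calls to 11 higher and 20 lower, beside 72.7% of all genes (27.2% higher and 45.5% lower), and 11 of the 22 and all 10 of the 10 then kept their call. Groups did not overlap for 27 members on the higher side (37.7% of all genes) and 17 on the lower side (40.6%). Cell type, RNA extraction (TRIzol for tumours, a column kit for sorted cells) and tissue go together in this contrast and cannot be told apart.

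Complex I accessory subunits made up 9 of the 10 genes on the lower side. Most of the 36 complex I members are accessory subunits, and 38.1% of all genes were lower. In complex II, 3 of 4 genes rose and 0 fell, with a median of 0.61. Complex III had 3 of 8 higher and 0 lower, complex V 4 of 14 and 0, complex IV 2 and 1 of 15, the assembly factors 5 of 7 and 0, and complex I 5 higher and 9 lower of 36. All 9 lower complex I genes encode accessory subunits (Ndufa3, Ndufa6, Ndufa7, Ndufa11, Ndufa13, Ndufb2, Ndufb9, Ndufs4 and Ndufv3). Of these 9, only Ndufa6 kept its call in all 17 alternatives. Length moved with the direction among the members: the 29 under 700 bases had a median of -0.40 and the 7 of 2500 bases or more 0.48, whereas other genes of these lengths had -0.04 and 0.00. The part of length in these values was not tested.

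Of the 32 calls, 10 held in all 17 alternatives: Atp5a1, Atp5b, Cox4i2, Cox5a, Ndufaf4, Ndufaf6, Ndufs1 and Sdhd higher, and Cox7a1 and Ndufa6 lower. One of the alternatives put active HSCs and active tumours in place of the sedentary ones, and 13 genes passed there, 8 higher and 5 lower, beside 57.8% of all genes (26.9 and 30.9%). Ndufs1, the iron-sulfur subunit at the electron entry of complex I, read 2113, 1913 and 2084 in tumours and 5033, 4485 and 4356 in HSCs, a rise of 1.18 on the log2 scale (SE 0.12, limma adjusted p = 0.000211). Atp5b, the catalytic beta subunit of complex V, read 24160, 22230 and 22582 in tumours and 52121, 45952 and 46831 in HSCs, a rise of 1.07 (SE 0.11, limma adjusted p = 0.00027). Cox5a, a nuclear subunit of complex IV, rose by 1.86 (SE 0.19).

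Sdhd, a membrane anchor of complex II, read 1854, 1726 and 1912 in tumours and 4728, 4262 and 3880 in HSCs, which is 1.22 higher on the log2 scale (SE 0.12, limma adjusted p = 0.000234). Its partner Sdhc, the other anchor, read 2088, 2149 and 2338 in tumours and 2162, 1841 and 2277 in HSCs and did not pass (-0.07, SE 0.13). Ndufaf4 read 431.5, 416.5 and 372.9 in tumours and 1705, 1569 and 1345 in HSCs, a rise of 1.91 (SE 0.14, limma adjusted p = 6.25e-05). Ndufaf6 read 57.1, 73.6 and 66.8 against 282.5, 298.9 and 206.3, a rise of 1.97 (SE 0.19). On the lower side Ndufa6, an accessory subunit of the LYR family, read 1076, 1111 and 951.8 in tumours and 650.2, 508.5 and 302.6 in HSCs, and fell by 1.17 (SE 0.29, limma adjusted p = 0.0109).

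Cox4i2 and Cox7a1, both minor isoforms of complex IV, had the widest differences of the 84 and in opposite directions. Cox4i2 read 12.6, 7.06 and 17.2 in tumours and 180.3, 198.8 and 187.4 in HSCs, a rise of 3.92 (SE 0.30, limma adjusted p = 7.88e-05). Cox7a1 read 126.7, 104.9 and 101.1 in tumours and 21.3, 18.5 and 6.16 in HSCs, a fall of 2.93 on the log2 scale (-2.93, SE 0.44, limma adjusted p = 0.00131). The tumours of this contrast are those with the high skeletal muscle sums. In active tumours of week 12, which lack these sums, Cox7a1 was still called lower in active HSCs, at -1.73. Per transcript length the minor isoforms stayed far below their common partners in every group.

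The RPKM levels show these isoform pairs. Cox4i2 had group means of 0.719 to 0.968 in tumours. Single libraries ranged from 9.49 to 10.7 in sedentary, 3.74 to 7.41 in active and 3.15 to 9.91 in transplant HSCs. Cox4i1 had 380.1 to 522.1 over all 7 groups. Cox7a1 had 12.2 ± 1.27 and 11.6 ± 7.46 in sedentary tumours of weeks 12 and 18, 4.49 ± 2.55 and 5.34 ± 1.62 in active ones (SD, n = 3), and 1.06 to 1.52 in HSCs, beside 61.4 to 93.1 for Cox7a2. Cox6b2, an isoform known from testis, had 0.687 to 1.61 beside 110.0 to 181.9 for Cox6b1. Cox8b, a muscle and brown fat isoform, had 4.41 to 24.6 in tumours beside 201.8 to 242.2 for Cox8a over all groups, and Ndufa4l2, a hypoxia-induced paralogue, 1.86 to 4.44 in tumours beside 132.1 to 218.1 for Ndufa4.

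**Figure D5:**
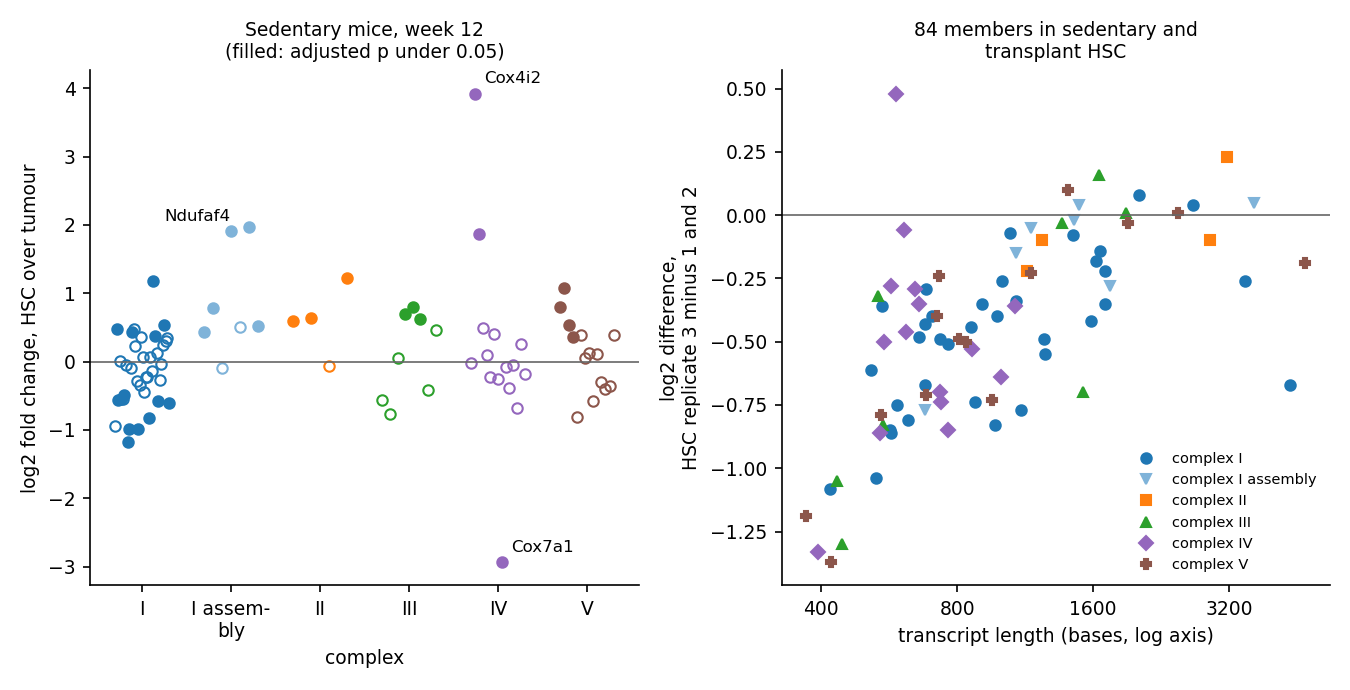
Left, the log2 fold change of HSCs over tumours in sedentary mice of week 12 for each of the 84 genes by complex, filled where the limma adjusted p was under 0.05; Cox4i2 (3.92) and Cox7a1 (-2.93) are the ends of the range. Right, the log2 difference of HSC replicate 3 from replicates 1 and 2 (sedentary and transplant groups) against transcript length on a log axis: most genes under 1000 bases lie below zero, and the lowest is Atp5e at -1.37.

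NRF1, GABP, YY1 and ERR alpha are transcription factors known to act on nuclear respiratory genes, and their motifs were searched in the members' promoters. RefSeq promoters (GRCm38.p6, 250 bases before to 50 after each start) were found for 71 of the 84 members. The NRF1 motif GCGCANGCG was in 22 of 71 (31.0%) beside 7.0% of 27025 genes, the GABP motif CCGGAAG in 17 (23.9%) beside 9.9%, the YY1 motif AAGATGGCG in 7 (9.9%) beside 1.6%, and the ERR alpha motif TCAAGGTCA in 2 (2.8%) beside 0.5%. Both strands were searched and no motif contains another. A match is a description of the letters and shows no binding. The 150 bases before the start are printed for 3 genes that hold a match there and for the Cox7a1 and Cox7a2 pair, which hold none in these windows, with the match in capitals:
Ndufaf4, chr4:24897933-24898082, plus strand: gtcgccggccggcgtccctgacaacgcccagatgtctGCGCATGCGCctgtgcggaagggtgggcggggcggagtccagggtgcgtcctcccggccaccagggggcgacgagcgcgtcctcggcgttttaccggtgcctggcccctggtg
Sdhd, chr9:50603850-50603999, minus strand: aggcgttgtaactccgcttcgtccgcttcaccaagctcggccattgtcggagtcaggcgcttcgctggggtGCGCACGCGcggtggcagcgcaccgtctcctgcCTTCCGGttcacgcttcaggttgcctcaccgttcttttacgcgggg
Atp5k, chr5:108434400-108434549, minus strand: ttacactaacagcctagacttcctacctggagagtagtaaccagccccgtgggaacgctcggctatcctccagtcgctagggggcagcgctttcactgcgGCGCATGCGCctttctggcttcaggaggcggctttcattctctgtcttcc
Cox7a2, chr9:79759854-79760003, minus strand: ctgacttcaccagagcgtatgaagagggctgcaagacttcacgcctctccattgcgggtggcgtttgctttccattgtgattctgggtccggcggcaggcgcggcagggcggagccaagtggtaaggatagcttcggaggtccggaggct
Cox7a1, chr7:30184021-30184170, plus strand: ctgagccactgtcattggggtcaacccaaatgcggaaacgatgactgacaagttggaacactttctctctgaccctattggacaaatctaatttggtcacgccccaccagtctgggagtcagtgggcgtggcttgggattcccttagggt
The capitals are the NRF1 motif, which in Ndufaf4 and Atp5k matches on both strands with overlap, and in Sdhd the NRF1 motif followed by the GABP motif on the other strand. Ndufaf4 and Sdhd were among the genes higher in HSCs in all alternatives, and Atp5k had the smallest p in tumours of week 18. Atp5b and Cox5a, also higher in all alternatives, hold none of the motifs in the searched window. The other genes higher in all alternatives, Atp5a1, Cox4i2, Ndufaf6 and Ndufs1, were not searched, since no promoter was found for them. Of the genes lower in all alternatives, Ndufa6 holds the NRF1 motif and Cox7a1 holds none. A relation between motif and direction was not tested.

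Other genes of the pathway were described from lists of their own. Between HSCs and tumours of sedentary mice, 12 of 13 tricarboxylic acid cycle genes rose and 0 fell, beside the 34.9 and 38.1% of all genes, with a median log2 difference of 0.74. All 3 genes of the cytochrome c list rose: Hccs, the heme lyase, by 2.08, Cycs, cytochrome c itself, by 1.78 and Cyc1 by 0.99. Cyc1 encodes cytochrome c1, a complex III subunit whose symbol the rule does not match. Of 30 further assembly factors 14 rose and 3 fell. Lrpprc, which stabilises mitochondrial mRNA, rose by 2.07, and Cox11 and Cox10, both needed for complex IV cofactors, by 1.81 and 1.40, whereas Tmem126b, a complex I assembly factor, fell by 1.73 and Cox14 by 1.48. Of 18 regulators of mitochondrial biogenesis 9 rose and 3 fell.

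The coactivators of the PGC-1 family differed in direction. Ppargc1b read 63.9, 90.8 and 109.3 in tumours and 389.0, 534.7 and 457.0 in HSCs, a rise of 2.40 (SE 0.23, limma adjusted p = 0.000207), and Pprc1 rose by 1.91. Ppargc1a read 127.8, 131.1 and 162.5 in tumours and 2.84, 3.08 and 2.20 in HSCs, so it was close to the limit of detection there, and it was lower by limma (adjusted p = 6.71e-06). The transcription factor Nrf1 rose by 1.15 and Tfam, which packages and transcribes mitochondrial DNA, by 0.93, while Esrra, the nuclear receptor ERR alpha, did not pass (-0.20, SE 0.14). In the transplant HSCs against the sedentary ones, 2 of the 18 regulators fell and 0 rose, beside 3.71 and 7.94% of all genes. Ppargc1b read 447.0, 610.1 and 517.4 in sedentary and 216.9, 318.5 and 314.5 in transplant HSCs (-0.90, SE 0.21, limma adjusted p = 0.0479), and Pprc1 5028, 5551 and 5603 against 2991, 3502 and 3737 (-0.67, SE 0.13, adjusted p = 0.0329). All 13 tricarboxylic acid cycle genes were below zero there and 0 passed by limma, with 3 at an unadjusted p under 0.05.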

How the data were processed

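RNA sequencing of 21 libraries in 7 groups of 3 was analysed from 4 deposited tables. The authors deposited a normalised signal per gene, which the tables' values show to be gene counts divided by 1 factor for each library, and whole reads were recovered from it within 0.05 reads. Reads were mapped to mm10, per the submitters' processing notes, and the aligner, counter and annotation are not given in the sources used here. The authors also deposited a log2 fold change and p-values for 4 comparisons. In the authors' deposited table for each of them, 0 of the 84 members had an adjusted p under 0.05, beside 1.06% of genes for tumours of week 12, 0.213% for tumours of week 18, 1.65% for active against sedentary HSCs and 7.92% for transplant against active HSCs.

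Values were tested with limma 3.58.1 (R 4.3.3) on log2(value + 1), keeping a gene where 1 group or the other averaged 1 or more, with Benjamini-Hochberg adjustment over all genes and a threshold of 0.05. Since the unit was a normalised signal, limma took the place of a count test, and edgeR 4.0.16 and DESeq2 1.42.0 on the recovered reads were alternatives. Tables were joined through recovered reads and rescaled by the median of ratios where a comparison crossed them. Named genes were, in each comparison, up to 4 called members in each direction by p (where none was called, the 2 with the smallest unadjusted p), the mitochondrial genes, Sdha to Sdhd, the isoform pairs and fixed regulators. Members and lists were chosen with earlier results of these data known. Same-numbered libraries deviated together (correlations over 0.1 in all 3 pairs) in the tumours of week 18 (0.185, 0.201 and 0.189) and between transplant and active HSCs (0.11, 0.124 and 0.309), from the data and not from the labels.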

Additional observations from a re-analysis of the deposited data

How the results depend on the processing

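Under the alternatives run, no called member reversed its direction between HSCs and tumours except Ndufaf7, whose difference was -0.07 with the active groups. Between transplant and sedentary HSCs, where the main count of members was 0, edgeR called 2 and DESeq2 called 3, in tables where 19.3 and 23.8% of genes passed. With replicates 1 and 2 only, the count was 1, beside 14.7% of all genes. Leaving out single libraries gave 0 to 2, beside 1.77 to 12.5%. Between HSCs and tumours 32 members passed, beside 73.0% of all genes. Leaving out single libraries gave 18 to 42, beside 66.6 to 71.6%, and 13 passed in the active groups, beside 57.8%. For age in tumours DESeq2 called 8 members, beside 3.75% of all genes, and limma 0, beside 0.0052%. With the replicate number as a block, 0 members passed in every comparison of tumours by activity and of HSC groups. Between HSCs and tumours 25 passed with the block, beside 70.2% of all genes. The block moved the count over all genes from 99 to 0 for tumours of week 12, from 1552 to 95 for transplant against sedentary HSCs, from 7 to 0 for transplant against active HSCs, and from 2 to 69 for the interaction. The block was not run for age. Counts over all genes also moved with the tool: limma and DESeq2 called 99 and 208 genes in tumours of week 12, 0 and 52 in tumours of week 18, 2 and 172 for the interaction, 0 and 274 for active against sedentary HSCs, 7 and 1134 for transplant against active HSCs, 1552 and 3167 for transplant against sedentary HSCs, and 1 and 721 for age.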
